A study of Mus musculus with 40 samples.

Results

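Solute carriers are membrane proteins that move small molecules across cell and organelle membranes, and they were followed here as a family in macrophages of 2 mouse strains. The family was taken by name: symbols that start with Slc and a digit, without Slc2a1, Slc7a2, Slc7a11, Slc11a1, Slc39a14 and Slc40a1. Of 351 such symbols, 167 reached 20 tags per 10 M (mega) sequenced tags in at least 2 of the 6 RNA-Seq libraries and are the members described, and 184 did not. The members stand among 10715 genes that passed the same filter and 22865 genes in all. Of the members, 151 reached this level in all 6 RNA-Seq libraries and 2 in exactly 2. Just inside the filter were Slc3a1, Slc2a3 and Slc16a9, whose second highest library held 21.6, 22.2 and 25.9 tags, and just outside were Slc7a4, Slc25a42 and Slc5a6 at 19.1, 18.1 and 16.8. In GRO-Seq 137 members passed the filter and 30 did not. The name rule also takes in genes that are not carriers themselves, among them Slc7a6os, Slc4a1ap, Slc9a3r1 and Slc9a3r2, the last pair being scaffold proteins that bind carriers. Slc3a2, a heavy chain that partners amino acid exchangers, is another.

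The cells were peritoneal macrophages of C57BL6/J and BALBc/J mice, drawn into the cavity with thioglycollate and kept overnight in culture. They received either no treatment or Kdo2-lipid A (KLA) at 100 ng/ml, the part of lipopolysaccharide that activates Toll-like receptor 4, and all cells, untreated ones included, had been given fresh warm medium. RNA-Seq of polyadenylated RNA had 1 library per strain without treatment, after KLA for 1 hr and after KLA for 4 hr. GRO-Seq, which reads RNA still attached to the polymerase, had 1 library per strain without treatment and after KLA for 1 hr. ChIP-Seq peak lists came from untreated cells and from cells given KLA for 1 hr, except p65, which was profiled after KLA with 2 replicates per strain. With 1 library per strain and treatment the strains served as the replicates of each KLA contrast, and the treatments as those of the strain contrast. Neither separate animals nor pools are named in the labels, so the p-values reflect how much these libraries varied, which may be technical, and not variation between mice.

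RNA-Seq libraries held 16.98 to 20.3 M tags and GRO-Seq libraries 39.4 to 48.3 M. Macrophage markers summed to between 75344 and 102039 RNA-Seq tags per 10 M in the 6 libraries, with Cd68 between 11658 and 14649, while the 3 T cell and the 3 erythroid markers were all at or near 0. Mesothelial and fibroblast markers summed to between 1026 and 1110 in C57BL6/J and between 2020 and 2447 in BALBc/J. Neutrophil markers rested on S100a8 alone, at 131 to 341 tags in C57BL6/J and 77.0 to 147 in BALBc/J, with S100a9 and Elane at or near 0. In tissue cells such as these, fewer cells of a type and less RNA per cell cannot be told apart.

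Carriers differ in what they move and where they sit. Some work at the plasma membrane and supply amino acids, sugars, ions, metals and vitamins. Others sit in lysosomes, where a macrophage breaks down what it has eaten and releases the products to the cytosol, and the carriers of the SLC25 family exchange metabolites, phosphate and iron across the inner mitochondrial membrane. In activated macrophages such carriers are known for feeding glycolysis, arginine and cystine use, and the withholding of iron and zinc from microbes. The 167 members were sorted by substrate into mitochondrial carriers (32), amino acids and peptides (26), inorganic ions and pH (24), metals (23), nucleotide sugars and related orphan carriers (17), organic acids, cations and anions (16), vitamins, nucleosides, choline and lipids (16), and sugars and polyols (13).

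Levels were compared between genes after division by transcript length, as mean RNA-Seq tags per 10 M and per kilobase over the 6 libraries. Slc15a3, a lysosomal carrier of histidine and small peptides, stood first at 4463, followed by Slc3a2, the heavy chain that brings several amino acid exchangers to the cell surface, at 2445. Slc2a6, a hexose carrier of the GLUT family found on lysosomes, was next at 1249, a mean that rests on its 4 hr libraries. The mitochondrial phosphate carrier Slc25a3 was at 1063, the scaffold Slc9a3r1 at 1010.2 and the mitochondrial ADP/ATP exchanger Slc25a4 at 987. Slc31a2, a copper carrier of endosomes and lysosomes, was at 886, and Slc48a1, which moves heme out of the phagolysosome, at 774. At the other end, Slc15a2, a peptide carrier of the plasma membrane, was at 4.95. Slc15a3 was high in every library, at 10207, 7999 and 13789 RNA-Seq tags per 10 M in C57BL6/J without treatment, at 1 hr and at 4 hr, and at 8785, 8861 and 13160.5 in BALBc/J. Its log2 change at 4 hr was 0.51 ± 0.16 (SE; limma, adjusted p = 0.0262), below the change of 1 required for a call, and it overlaps Tmem132a on the other strand. Slc3a2 ranged from 4759 to 8076 tags, with a log2 change at 4 hr of 0.25 ± 0.15 (adjusted p = 0.19).

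KLA for 4 hr moved many solute carriers. With the libraries scaled as deposited, 12 members rose and 53 fell, and with each library centred on its median gene 18 were called higher and 16 lower. A call needs a limma adjusted p under 0.05 over all genes tested and a log2 change no smaller than 1 in size. The 12 are 7.19% of the members beside 8.06% of all genes tested, and the 53 are 31.7% beside 21.1%. The median log2 change was -0.68 over the members and -0.47 over all genes tested. Centring moves the median gene by 0.43 on this scale, so changes are given as deposited, with the counts after centring beside those of each class. The shares of all genes, 8.06% higher and 21.1% lower as deposited, stand beside every class count below. No class was tested as a set. After centring, 10.8% of members were higher and 9.58% lower, beside 11.7% and 9.55% of all genes, so the larger share of falling members was seen on the deposited scale only. Without the C57BL6/J 4 hr library 13 members were called higher and 40 lower, and without the BALBc/J 4 hr library 14 and 61. Shares of all genes were not counted in these refits. With a pseudocount of 50, 30 of the 53 were still called lower. All 65 called members changed in the same direction in both strains, which is largely built into the call, since the strains are its replicates. The neutrophil marker S100a8 also rose at 4 hr, by 1.08 on the log2 scale, and 1 of 2 tested mast cell markers fell, and their part in the members' changes was not tested.

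**Figure D1:**
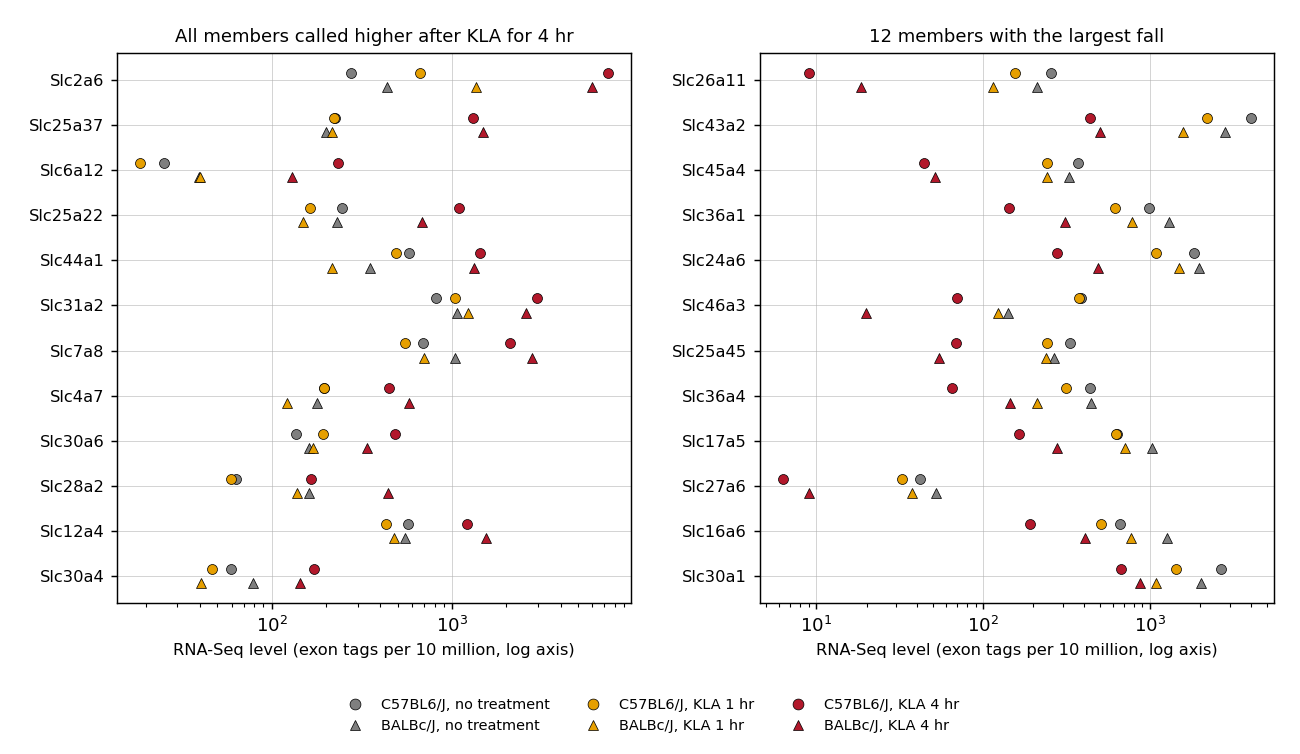
RNA-Seq levels (exon tags per 10 M, log axis) of the 12 members called higher after KLA for 4 hr (left) and of the 12 with the largest fall (right), with 1 point per library, circles for C57BL6/J and triangles for BALBc/J, coloured by treatment. The 4 hr points lie to the right of the untreated points of the same strain for every member on the left and to the left of them for every member on the right, among them Slc2a6 from 274 to 7309 tags and Slc26a11 from 256 to 8.98 in C57BL6/J.

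Among sugar carriers, Slc2a6 (chr2:26876884-26883518 on mm9, minus strand) had the largest fitted log2 change of any member, with the pseudocount of 10. It was at 274, 664 and 7309 RNA-Seq tags per 10 M in C57BL6/J without treatment, at 1 hr and at 4 hr, and at 438, 1361 and 5956 in BALBc/J. Each strain climbed at both times, by 26.7-fold in C57BL6/J and 13.6-fold in BALBc/J at 4 hr, and no treated library overlapped an untreated one. The log2 change was 1.43 ± 0.29 at 1 hr (limma, adjusted p = 0.0332) and 4.21 ± 0.29 at 4 hr (adjusted p = 1.86e-05). Nascent RNA had already moved at 1 hr, from 73.2 to 469 GRO-Seq tags in C57BL6/J and from 89.0 to 431 in BALBc/J, a log2 change of 2.34 ± 0.32 (adjusted p = 1.51e-11). All 4 p65 lists held a peak within 1000 bp of its start site, centred at -639 to -550 bp (negative values lie upstream), with 239 to 449 tags per 10 M as the authors' own peak signal. The strongest p65 peak within 20000 bp lay 2293 to 2305 bp downstream of the start site in all 4 lists, inside the gene, with 802 to 1282 tags. The promoter is shown because this member had the largest fitted change and carries p65, and it is the sequence just upstream of the start site that RefSeq gives on GRCm38.p6 (chr2:27027999-27028248, minus strand, read 5′ to 3′ along the gene). The consensus of the kappaB motif, searched on both strands, has no match in these 250 bases, so none is in capitals, and peak positions on mm9 were not mapped to them.
Slc2a6: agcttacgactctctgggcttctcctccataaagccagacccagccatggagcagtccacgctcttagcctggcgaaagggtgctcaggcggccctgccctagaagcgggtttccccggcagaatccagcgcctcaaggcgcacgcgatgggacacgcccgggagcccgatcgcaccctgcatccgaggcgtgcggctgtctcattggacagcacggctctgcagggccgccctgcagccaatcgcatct

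Of the 13 sugar carriers 1 rose, 6 fell and 6 were not called at 4 hr, with a class median of -0.91, and after centring 2 were higher and 1 was lower. Slc45a4, of a family related to sucrose carriers, dropped from 371 and 327 tags (C57BL6/J and BALBc/J) to 44.2 and 51.5, a log2 change of -2.63 ± 0.19 (adjusted p = 2.34e-05). Slc37a2, a sugar phosphate exchanger of the endoplasmic reticulum and by tags the most abundant member of the class, stood at 4092 and 3940.1 without treatment and at 1547 and 1586 at 4 hr. Its change of -1.35 ± 0.16 (adjusted p = 0.000293) was no longer called after centring, at -0.92. Slc2a8, an intracellular hexose carrier, fell by 1.31 on the log2 scale (adjusted p = 0.00168) from 263 and 276 tags to 97.3 and 109, and by 0.87 after centring, under the call. The remaining calls were Slc37a4, which carries glucose 6-phosphate into the endoplasmic reticulum, and Slc37a1 and the glucose carrier Slc2a3, with changes between -1.43 and -1.28. Slc2a3 was low throughout, at 4.34 to 59.0 tags.

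Amino acid carriers split, with 2 of 26 higher and 8 lower at 4 hr (3 and 3 after centring). Slc7a8, an exchanger of neutral amino acids that pairs with Slc3a2, rose from 692 and 1034 tags to 2095 and 2784, a log2 change of 1.50 ± 0.17 (adjusted p = 0.000206). Slc6a12, the carrier of betaine and GABA, was at 25.3, 18.7 and 233 tags in C57BL6/J without treatment, at 1 hr and at 4 hr, and at 39.5, 40.2 and 129.9 in BALBc/J. Its log2 change at 4 hr was 2.14 ± 0.35 (adjusted p = 0.00146), and 1.42 without the C57BL6/J 4 hr library or 2.86 without the BALBc/J one. Both genes were higher in each strain at 4 hr than in either earlier library of that strain.

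The largest falls of the class were in Slc43a2, Slc36a1 and Slc36a4. Slc43a2, which lets branched and aromatic neutral amino acids pass the plasma membrane (chr11:75345613-75391074 on mm9, plus strand), was at 4001, 2206 and 436 tags in C57BL6/J without treatment, at 1 hr and at 4 hr, and at 2799.6, 1580.3 and 502 in BALBc/J. In both strains each later library was below the earlier one, by 9.18-fold and 5.58-fold at 4 hr, a log2 change of -2.81 ± 0.21 (adjusted p = 2.93e-05). The gene spans Mir3971 on the same strand. Slc36a1, which exports small amino acids from lysosomes together with protons, went from 986 to 620 and 142 tags in C57BL6/J and from 1299 to 776 and 308 in BALBc/J. Its log2 change at 4 hr was -2.38 ± 0.22 (adjusted p = 8.38e-05). Slc36a4, a relative of it, went from 438 to 313 and 65.3 and from 442 to 209 and 145, a change of -2.06 ± 0.34 (adjusted p = 0.00142) that was -1.40 without the C57BL6/J 4 hr library and -2.72 without the BALBc/J one. Slc38a9, the lysosomal carrier that reports arginine to the mTORC1 kinase complex, was at 295 and 369 tags without treatment and at 132 and 145 at 4 hr, a change of -1.20 ± 0.20 (adjusted p = 0.00144) that was -0.76 and not called after centring. The others called lower were the glutamine carriers Slc38a2 and Slc38a7, the lysosomal peptide and histidine carrier Slc15a4 and the creatine carrier Slc6a8, with changes of -1.30 to -1.09. Slc38a2 was higher at 1 hr than without treatment in both strains (854 to 1222 and 1089 to 1335 tags) and then lower at 4 hr (281 and 621).

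Zinc and copper carriers held 3 of the 12 rises. Of 23 metal carriers 3 rose and 4 fell (4 and 1 after centring), beside 8.06% and 21.1% of all genes tested as deposited. Slc31a2 went from 817 to 1040.3 and 2966 tags in C57BL6/J and from 1067 to 1228 and 2576 in BALBc/J, a log2 change at 4 hr of 1.56 ± 0.19 (adjusted p = 0.000354). Slc31a1, the copper importer of the plasma membrane, went from 928 and 1220.1 tags to 2159 and 1883, a log2 change of 0.92 ± 0.19 (adjusted p = 0.00476) that was called only after centring. Slc30a6, a Golgi member of the zinc carrier family, rose from 136 and 161 tags to 481 and 337, by 1.38 ± 0.22 (adjusted p = 0.00122). Slc30a4, which loads zinc into vesicles, rose from 59.5 and 78.6 tags to 172 and 144, by 1.09 ± 0.22 (adjusted p = 0.00359), a call lost without the untreated C57BL6/J library (0.82) or the C57BL6/J 4 hr library (0.93).

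Slc30a1, which exports zinc across the plasma membrane (chr1:193730659-193737126 on mm9, plus strand), moved against these. It fell from 2652 to 1421 and 668 tags in C57BL6/J and from 2012 to 1084 and 866 in BALBc/J, a log2 change at 4 hr of -1.59 ± 0.22 (adjusted p = 0.000685). Every treated library was below both untreated ones. A gene on the other strand, 1700034H15Rik, overlaps it. Slc30a5, the magnesium exporter Slc41a1 and the zinc importer Slc39a10 also fell, by 1.09 to 1.29 on the log2 scale. For Slc39a10 the change of -1.24 ± 0.43 (adjusted p = 0.0387) was -0.38 without the C57BL6/J 4 hr library and -0.81 after centring, neither of them called. Slc48a1, by tags the most abundant metal carrier, went from 2583 and 2247 tags to 1573 and 1052, a log2 change of -0.90 ± 0.17 (adjusted p = 0.00305) that was under the call. Slc30a1 is a textbook target of the zinc-sensing factor MTF-1, and its RefSeq promoter (chr1:191906531-191906780 on GRCm38.p6, plus strand) is shown for that reason. The capitals mark the match to the metal response element core, searched as TGCACNC or TGCGCNC on both strands. The match here is on the other strand and ends in the sequence as GAGTGCA, starting 43 bases before the start site.
Slc30a1: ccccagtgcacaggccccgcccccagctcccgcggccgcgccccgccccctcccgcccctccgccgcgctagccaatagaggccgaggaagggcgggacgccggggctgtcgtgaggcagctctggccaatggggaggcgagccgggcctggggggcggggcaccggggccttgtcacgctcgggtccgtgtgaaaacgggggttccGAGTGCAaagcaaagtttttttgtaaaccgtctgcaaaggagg

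Mitochondrial carriers, the largest class, held 2 rises and 7 falls among 32 members (5 and 1 after centring). Slc25a37, or mitoferrin 1, which brings iron into mitochondria (chr14:69859907-69903160 on mm9, minus strand), was flat at 1 hr and then rose. It was at 224, 221 and 1312 tags in C57BL6/J and at 200.3, 215 and 1493 in BALBc/J, a log2 change at 4 hr of 2.67 ± 0.18 (adjusted p = 1.83e-05). Slc25a22, a mitochondrial glutamate carrier, was lower at 1 hr and higher at 4 hr, with 247, 163 and 1089 tags in C57BL6/J and 232, 149 and 684 in BALBc/J, and its change at 4 hr was 1.81 ± 0.21 (adjusted p = 0.000231). Slc25a45, a carrier of the same family, fell from 332 and 264 tags to 68.2 and 54.1, by 2.11 on the log2 scale (adjusted p = 6.55e-05), and was the only mitochondrial carrier still called lower after centring. The other 6 falls, in Slc25a13, Slc25a16, Slc25a24, Slc25a30, Slc25a38 and Slc25a44, were between -1.29 and -1.05. By tags the most abundant were Slc25a3, at 1385 to 1866 tags with a change of -0.29 ± 0.17 (adjusted p = 0.175), and the oxoglutarate carrier Slc25a11, at 791 to 1662 with a change of -0.84 ± 0.18 (adjusted p = 0.0055), neither of them called.

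Carriers of inorganic ions showed 2 rises and 9 falls among 24 members (2 and 3 after centring). Slc4a7, which brings sodium and bicarbonate into the cell, rose from 195 and 178 tags to 445 and 581, by 1.40 ± 0.25 (adjusted p = 0.00222). Slc12a4, which exports potassium with chloride, rose from 572 and 549.8 to 1206 and 1542, by 1.27 ± 0.18 (adjusted p = 0.000768). Slc26a11, a sulfate carrier (chr11:119216870-119242390 on mm9, plus strand), had the largest fitted fall of any member, from 256 to 155 and 8.98 tags in C57BL6/J and from 209 to 115 and 18.6 in BALBc/J. Its levels at 4 hr were 28.5-fold and 11.3-fold below those without treatment, a log2 change of -3.37 ± 0.27 (adjusted p = 3.41e-05) that the pseudocount makes smaller than the ratio of tags. Slc24a6, the sodium and calcium exchanger of mitochondria, fell from 1833 and 1952 to 278 and 488, by 2.33 on the log2 scale (adjusted p = 6.08e-05). Slc20a1, a phosphate importer, was higher at 1 hr in both strains (486 to 759 and 731 to 1206 tags, a change of 0.67 ± 0.18 with adjusted p = 0.0797) and lower at 4 hr (193 and 362), where its change was -1.14 ± 0.18 (adjusted p = 0.00114). Slc9a4 fell by 1.52, and Slc26a6, Slc8a1, Slc9a3r2, Slc9a9 and Slc12a9 by 1.10 to 1.25 on the log2 scale. The scaffold Slc9a3r1, the most abundant name of the class, changed by 0.56 ± 0.17 (adjusted p = 0.0209), under the call.

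No carrier of organic acids or of nucleotide sugars was called higher at 4 hr, with either scaling. Of all genes tested 8.06% were higher as deposited and 11.7% after centring, so few calls could fall in classes of 16 and 17 members. Among 16 carriers of organic acids, cations and anions 7 fell (3 after centring). Slc17a5, which releases sialic acid from lysosomes, was at 629.9, 627 and 164 tags in C57BL6/J and at 1031, 704 and 278 in BALBc/J, a log2 change at 4 hr of -1.87 ± 0.20 (adjusted p = 0.000181). Slc16a6, of the monocarboxylate carriers, fell from 656 and 1256 to 192 and 405, by 1.67 on the log2 scale (adjusted p = 0.000221), and overlaps LOC100503496 on the other strand. Slc16a3, the lactate exporter, fell by 1.02 ± 0.17 (adjusted p = 0.0016), from 516 and 1305 tags to 241 and 656, and was not called after centring (-0.59) or without the untreated C57BL6/J library (-0.96). Among 17 nucleotide sugar carriers of the Golgi and endoplasmic reticulum 5 fell (2 after centring). Slc35b4, which carries UDP-xylose and UDP-GlcNAc, fell from 832 and 1112 tags to 278 and 425, by 1.46 ± 0.18 (adjusted p = 0.000349). Slc35f5, an orphan carrier and by tags the most abundant of the class, was at 531 to 839 tags with a change of -0.41 ± 0.17 (adjusted p = 0.0711).

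Among 16 carriers of vitamins, nucleosides, choline and lipids 2 rose and 7 fell (2 and 2 after centring). Slc44a1, the choline carrier, was at 575, 489 and 1437 tags in C57BL6/J and at 351, 217 and 1321 in BALBc/J, lower at 1 hr and higher at 4 hr, with a log2 change at 4 hr of 1.59 ± 0.25 (adjusted p = 0.00107). Slc28a2, which takes up purine nucleosides with sodium, rose from 63.5 and 161 tags to 165 and 441, by 1.32 ± 0.19 (adjusted p = 0.00071). Slc46a3, a lysosomal member of the folate carrier family (chr5:148690016-148706378 on mm9, minus strand), held its level at 1 hr and then fell, from 387 to 375 and 69.6 tags in C57BL6/J and from 140.5 to 122 and 19.8 in BALBc/J, a change of -2.33 ± 0.18 (adjusted p = 3.5e-05). Slc27a6, a low fatty acid carrier, fell from 41.8 and 52.2 tags to 6.33 and 8.99, by 1.69 on the log2 scale (adjusted p = 0.000204). Slc27a1, its abundant relative, fell from 2799 and 2315 to 1012 and 1044, by 1.30 (adjusted p = 0.000461), or by 0.87 and under the call after centring. Slc29a3, the nucleoside carrier of lysosomes, was at 1547 and 1517 tags without treatment and at 518 and 1105 at 4 hr. Its change of -1.01 ± 0.35 (adjusted p = 0.0395) was -0.57 after centring, -0.29 without the C57BL6/J 4 hr library and -0.89 without the untreated C57BL6/J library, none of them called, and -1.72 without the BALBc/J 4 hr library. Slc23a2, which imports vitamin C, ranged from 717 to 1728 tags with a change of 0.09 ± 0.30 (adjusted p = 0.808).

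**Figure D2:**
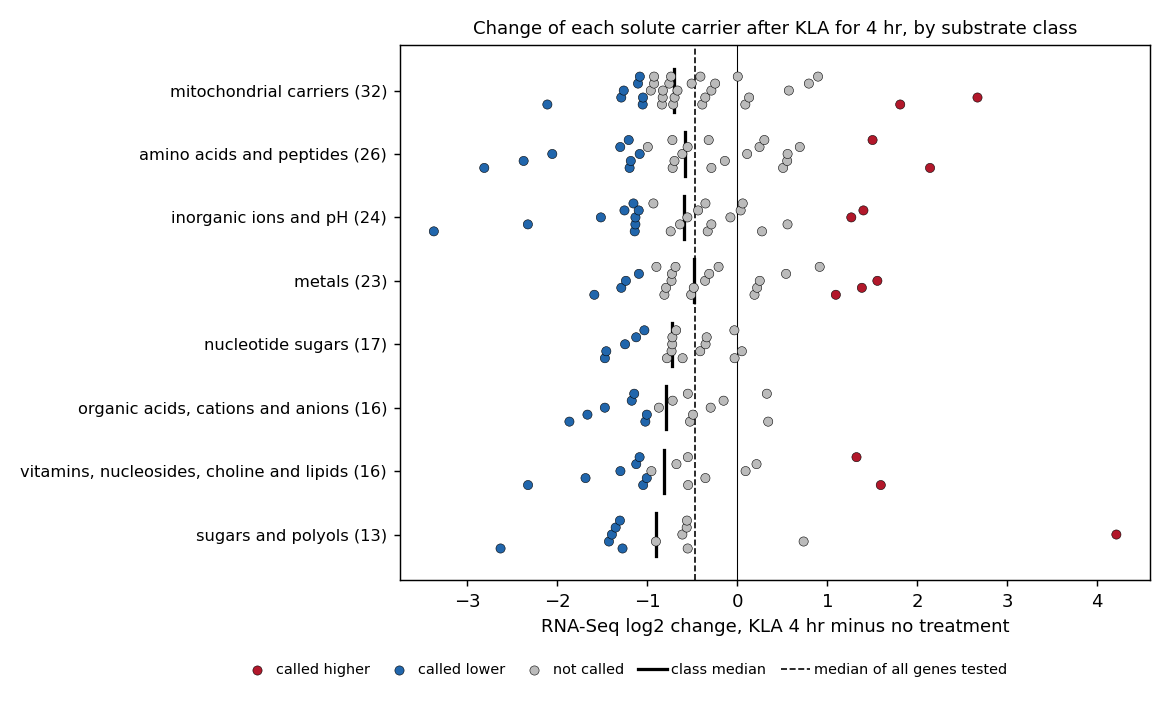
Fitted RNA-Seq log2 change from no treatment to KLA for 4 hr on the deposited scale (x axis) of each of the 167 members, with 1 point per gene, grouped by substrate class with its number of members, and coloured by call; bars mark class medians and the dashed line the median of all genes tested (-0.47). Class medians run from -0.48 for metals to -0.91 for sugars, 12 points are called higher and 53 lower, and with centred libraries 18 and 16.

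After KLA for 1 hr, 2 of the 167 members were called higher in RNA-Seq, 1.20% beside 1.82% of all genes tested, and none lower beside 1.45%. At an unadjusted limma p under 0.05 there were 44 members, 26.3% beside 23.1% of all genes tested. The members' median log2 change was -0.29 and that of all genes -0.21. Without the C57BL6/J 1 hr library 12 members were called lower, and without each of the other libraries none. The share of all genes called lower in that refit was not counted. Besides Slc2a6 the call was Slc25a25, which moves ATP-magnesium against phosphate across the inner mitochondrial membrane. It went from 234 to 1150.2 tags in C57BL6/J and from 214 to 1103 in BALBc/J and was at 381 and 411 at 4 hr. The change at 1 hr was 2.28 ± 0.18 (adjusted p = 0.000188). Its GRO-Seq levels at 1 hr were 122 and 121 tags beside 78.9 and 86.2 without treatment, a change of 0.51 ± 0.34 (adjusted p = 0.283). Slc25a25 overlaps Naif1 on the other strand, and reads of overlapping genes cannot be told apart, since nothing read here states that tags were counted by strand. In all, 21 members overlap another gene of the table.

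GRO-Seq measured nascent RNA after KLA for 1 hr, counted over exons as for RNA-Seq. Of the 137 members tested 8 were higher, 5.84% beside 4.29% of all genes tested, and 23 were lower, 16.8% beside 15.5%. With centred libraries 11 were higher, 8.03% beside 6.79% of all genes tested, and 11 were lower, 8.03% beside 6.99%. With a pseudocount of 50, 5 of the 23 were still called lower, and with a filter of 100 tags 7, the other 16 not being tested. The members' median log2 change was -0.35 and that of all genes -0.34, so the family stood at the level of the rest. The median was -0.55 in C57BL6/J alone and -0.16 in BALBc/J alone. The C57BL6/J library at 1 hr had 7.38% of its tags in exons, beside 8.98 to 9.83% in the other GRO-Seq libraries, and its members summed to 10472 tags per 10 M beside 13213 to 13683. Its part in the falls was not tested. The fit has 1 residual degree of freedom, and limma gave each gene's own spread no weight. Every GRO-Seq SE and p-value therefore rests on the spread pooled over genes of similar level, not on agreement between the gene's own libraries. The 8 higher members were Slc2a6, Slc44a1, Slc25a37, Slc4a7, Slc16a10, Slc12a4, Slc7a8 and Slc38a1. Slc44a1 went from 57.4 to 262 GRO-Seq tags in C57BL6/J and from 28.1 to 176 in BALBc/J, a log2 change of 2.15 ± 0.34 (adjusted p = 1.3e-08). Slc25a37 went from 102 to 410.1 and from 86.1 to 426, a change of 2.05 ± 0.32 (adjusted p = 4.47e-09). At the same time the polyadenylated RNA of Slc44a1 was lower than without treatment in both strains, and that of Slc25a37 was at 221 and 215 tags beside 224 and 200.3. Slc16a10, a carrier of aromatic amino acids, went from 142 to 361 and from 146 to 428 (1.39 ± 0.31, adjusted p = 8.89e-05), and the glutamine carrier Slc38a1 from 194 to 347 and from 184 to 491 (1.09 ± 0.31, adjusted p = 0.00236). Their RNA-Seq changes at 4 hr, 0.55 ± 0.20 and 0.69 ± 0.26, were under the call.

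The deepest falls of nascent RNA were in carriers already named. Slc36a1 went from 186 to 36.2 GRO-Seq tags in C57BL6/J and from 251 to 67.7 in BALBc/J (-1.92 ± 0.34, adjusted p = 4.08e-07). Slc26a11 went from 64.2 to 7.42 and from 49.3 to 7.99 (-1.91 ± 0.30, adjusted p = 4.96e-09). Slc43a2 went from 709 to 122 and from 630.3 to 252 (-1.87 ± 0.30, adjusted p = 1.16e-08). In each of these the treated libraries lay below both untreated ones. Slc45a4, Slc38a9, Slc17a5, Slc25a45, Slc37a2, Slc12a9, Slc30a1, Slc2a8 and Slc36a4 followed, with changes from -1.78 to -1.22, and Slc36a4 was not called after centring (-0.86). Slc38a9 fell from 119.8 and 122 tags to 30.0 and 28.5, and Slc12a9, a member of the cation and chloride cotransporters, from 60.5 and 62.2 to 12.1 and 21.7 (-1.43 ± 0.34, adjusted p = 0.000211). Slc12a9 also fell in RNA-Seq at 4 hr, by 1.25 (adjusted p = 0.00115), or by 0.82 and under the call after centring.

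The promoters of Slc36a1 and Slc12a9 were chosen after their values were seen and are shown because both genes fell in both assays and both promoters hold CACGTG, the E-box read by the MiT/TFE factors that drive lysosomal genes and by MYC. In the 250 bases upstream of the start site the motif was found in 13 of the 94 members with a single RefSeq promoter that matches the transcript used (13.8%), in 8.69% of 6130 genes tested in RNA-Seq with a single promoter, and in 6.02% of all 32851 promoters. Of these 13 members 2, the pair shown, were called lower in both assays, 5 were called lower in RNA-Seq at 4 hr only, and 6 were called in neither, 2 of them not tested in GRO-Seq. Over all 167 members 31.7% were called lower at 4 hr, and 12.4% of the 137 tested in both assays were lower in both. Calls of all tested genes with the motif were not counted, and a link between motif and change was not tested. The motif reads the same on both strands and is in capitals, starting 31 bases before the start site in Slc36a1 (chr11:55204090-55204339 on GRCm38.p6, plus strand) and 106 bases before it in Slc12a9 (chr5:137333583-137333832, minus strand). A match of letters is a description and not a binding site.
Slc36a1: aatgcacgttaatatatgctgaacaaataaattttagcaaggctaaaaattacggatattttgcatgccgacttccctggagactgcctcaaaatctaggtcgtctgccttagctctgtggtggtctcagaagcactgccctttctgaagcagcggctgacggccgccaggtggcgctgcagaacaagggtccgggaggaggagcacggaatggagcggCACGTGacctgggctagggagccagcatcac
Slc12a9: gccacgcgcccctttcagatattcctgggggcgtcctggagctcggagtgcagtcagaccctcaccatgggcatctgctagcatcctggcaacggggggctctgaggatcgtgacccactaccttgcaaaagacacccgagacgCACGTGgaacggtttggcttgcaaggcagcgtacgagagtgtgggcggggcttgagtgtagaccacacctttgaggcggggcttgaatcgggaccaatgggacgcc
The other motifs were searched on both strands of the same promoters. The metal response element core was in 30.9% of member promoters and 30.96% of those genes, and the kappaB consensus in 3.19% and 6.04%. AP-1, searched as TGANTCA, was in 9.57% and 4.14%, PU.1, searched as GAGGAAGT, in 4.26% and 2.63%, and ATF4, searched as TGATGNAA, in 2.13% and 1.78%. In counts of members these shares are 29, 3, 9, 4 and 2 of 94.

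GRO-Seq and RNA-Seq share no library, and their calls were set side by side for the 137 members tested in both. Slc2a6, Slc44a1, Slc25a37, Slc4a7, Slc12a4 and Slc7a8 were higher in nascent RNA at 1 hr and in polyadenylated RNA at 4 hr, which is 4.38% of these members beside 3.19% of the 8401 genes tested in both. Lower in both were 17 members, 12.4% beside 9.45%. Called in RNA-Seq at 4 hr but not in GRO-Seq at 1 hr were 2 members that rose, Slc31a2 and Slc30a6, and 31 that fell. These are 1.46% of members beside 4.32% of the genes tested in both, and 22.6% beside 12.4%. Slc24a6 was among the latter, with a GRO-Seq change of -0.42 ± 0.32 (adjusted p = 0.357) beside -2.33 in RNA-Seq. Neither assay called 73 members, 53.3% beside 63.8%. All these shares are on the deposited scale and were not counted with centred libraries. After centring, 9.58% of the 167 members and 9.55% of all genes tested in RNA-Seq were lower at 4 hr. Slc25a22 was the sole member called in opposite directions, 0.73% of members beside 0.262% of all genes tested in both. Its GRO-Seq level went from 65.9 to 18.4 tags in C57BL6/J and from 64.8 to 31.2 in BALBc/J, a change of -1.14 ± 0.35 (adjusted p = 0.00669) that was -0.79 and not called after centring. Polyadenylated Slc25a22 was also lower at 1 hr (-0.59 ± 0.21, adjusted p = 0.152) before it rose at 4 hr.

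**Figure D3:**
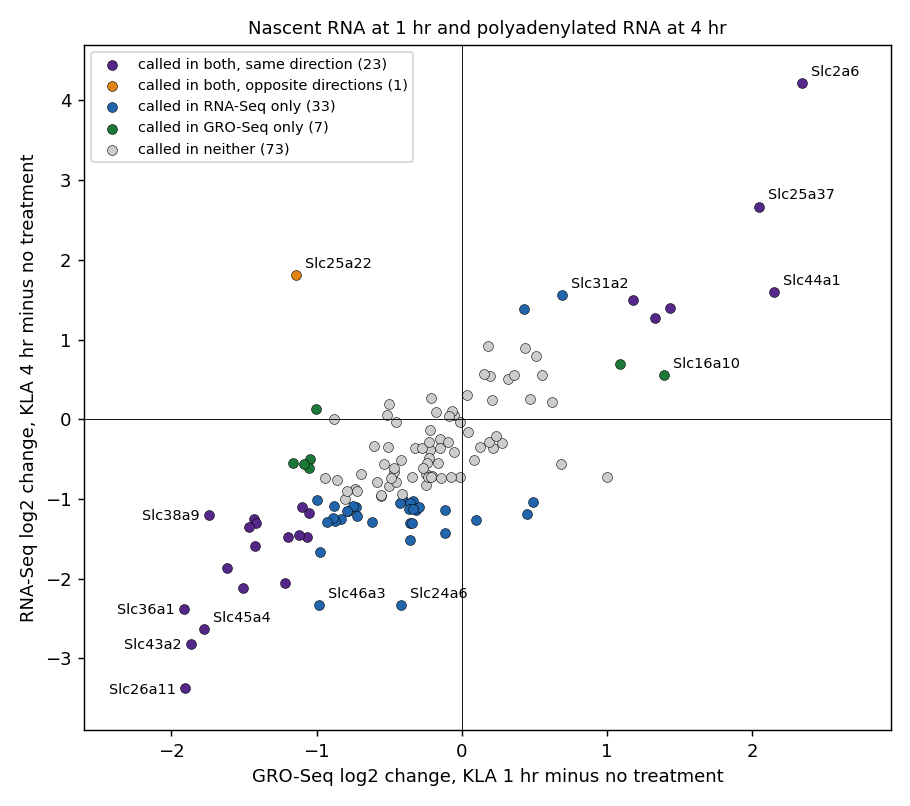
Log2 change of nascent RNA after KLA for 1 hr in GRO-Seq (x axis) and of polyadenylated RNA after KLA for 4 hr in RNA-Seq (y axis), both on the deposited scale, with 1 point for each of the 137 members tested in both, coloured by where they were called. Slc2a6, Slc25a37 and Slc44a1 lie at the upper right, Slc26a11, Slc43a2 and Slc36a1 at the lower left, and Slc25a22 stands alone at -1.14 and 1.81.

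Between the strains 9 members differed in RNA-Seq over the 3 treatments. In C57BL6/J 3 were higher, beside 1.2% of all genes tested, and 6 were higher in BALBc/J, 3.59% beside 2.52%. Each kept its direction in every treatment, which is largely built into the call, since the treatments are its replicates. Slc39a2, a zinc importer (chr14:52513284-52516420 on mm9, plus strand), differed most. It was at 11.9, 6.94 and 15.0 RNA-Seq tags in C57BL6/J without treatment, at 1 hr and at 4 hr, and at 133, 110.1 and 153 in BALBc/J, so that the lowest BALBc/J library was far above the highest of C57BL6/J. The log2 difference, C57BL6/J minus BALBc/J, was -2.75 ± 0.15 (limma, adjusted p = 6.04e-05). Its nascent RNA, at 16.6 and 8.84 GRO-Seq tags in C57BL6/J and 39.1 and 24.4 in BALBc/J, differed by -0.88 ± 0.27 (adjusted p = 0.0991).

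Slc16a3, the lactate exporter, was at 516, 384 and 241 tags in C57BL6/J and at 1305, 1098 and 656 in BALBc/J, a difference of -1.41 ± 0.14 (adjusted p = 0.000883). Slc45a3 (35.9, 26.9 and 65.7 beside 127, 93.7 and 221 tags), Slc28a2 (63.5, 59.7 and 165 beside 161, 138 and 441) and the amino acid carrier Slc38a6 (199.7, 175 and 159 beside 493, 383 and 408) differed by -1.56, -1.22 and -1.22 with adjusted p of 0.000838, 0.00274 and 0.00229. Within each treatment these 4 were lower in C57BL6/J, and for Slc28a2 the strains overlap across treatments.

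Higher in C57BL6/J were Slc46a3 and a pair of low genes. Slc46a3 was at 387, 375 and 69.6 tags beside 140.5, 122 and 19.8 in BALBc/J, a difference of 1.45 ± 0.15 (adjusted p = 0.00105), so the strain difference held while KLA lowered both. Slc15a2 was at 36.9, 45.4 and 19.9 tags beside 6.27, 4.20 and 6.45 (1.45 ± 0.22, adjusted p = 0.0065). Slc18a1, a vesicular monoamine carrier, was at 103, 96.0 and 64.9 beside 33.5, 28.7 and 23.1 (1.34 ± 0.16, adjusted p = 0.00207), and its locus overlaps Atp6v1b2, an abundant proton pump subunit on the other strand. With a pseudocount of 50 the differences of Slc15a2 and Slc18a1 were 0.58 and 0.81 and that of Slc28a2 was -0.95, none of them called. In GRO-Seq no member was called between the strains, beside 0.428% of all genes that were higher in C57BL6/J and 0.482% that were higher in the other strain, and 10 of 137 had an unadjusted limma p under 0.05, 7.30% beside 7.29%. For Slc46a3 nascent levels were 58.1 and 18.6 tags in C57BL6/J and 54.6 and 29.2 in BALBc/J, a difference of -0.19 ± 0.35 (adjusted p = 0.879), and for Slc38a6 the difference was 0.11 ± 0.35 (adjusted p = 0.929). The mesothelial and fibroblast markers, whose summed level was also higher in every BALBc/J library and of which 3 of 5 (Upk3b, Col1a1 and Dcn) were called higher there, move with the strain contrast, and their part in the members' differences was not tested.

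**Figure D4:**
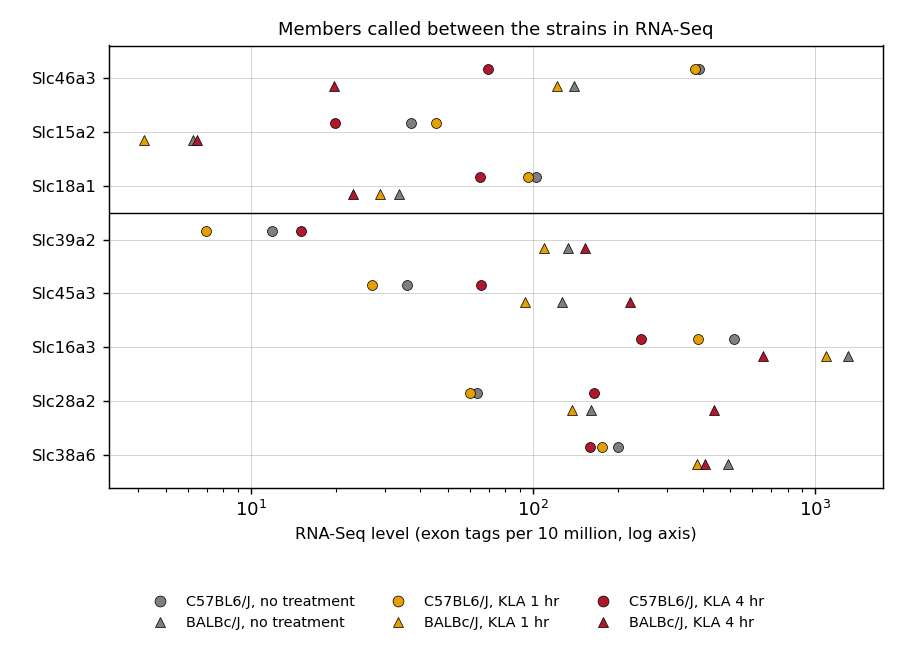
RNA-Seq levels (exon tags per 10 M, log axis) of 8 members called between the strains, with 1 point per library, circles for C57BL6/J and triangles for BALBc/J, coloured by treatment; the 3 above the line were higher in C57BL6/J and the 5 below it in BALBc/J. Slc39a2 shows the widest gap, at 6.94 to 15.0 tags in C57BL6/J and 110.1 to 153 in BALBc/J.

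Whether a strain changes the KLA response cannot be tested with 1 library per strain and treatment, so the responses are given side by side. At 4 hr in RNA-Seq 5 of 167 members differed by at least 1 on the log2 scale (2.99%, beside 4.65% of all genes). For Slc20a2, a phosphate importer, the change was -1.21 in C57BL6/J (222 to 90.3 tags) and 0.10 in BALBc/J (279.8 to 300.3). Slc6a12 changed by 2.78 and 1.50, Slc39a10 by -1.84 and -0.64, Slc29a3 by -1.56 and -0.45, and Slc36a4 by -2.57 and -1.54. In each of these 5 the C57BL6/J change was the larger in size. How often that holds among all genes that differ by at least 1 was not counted. Over all 167 members the difference, C57BL6/J minus BALBc/J, was negative in 94 and positive in 73. At 1 hr 3 members of 167 differed by at least 1 in RNA-Seq (beside 0.392% of all genes) and 6 of 137 in GRO-Seq (4.38% beside 4.24%). The GRO-Seq count was 15 with a pseudocount of 2, 0 with a pseudocount of 50 and 2 with centred libraries. Shares of all genes were not counted in these settings. Over all genes the median GRO-Seq response was lower in C57BL6/J than in BALBc/J, with a difference of -0.43, and 121 of the 137 members had a negative difference. The GRO-Seq ones were led by Slc30a1, at 195 to 35.3 tags in C57BL6/J and 226 to 138 in BALBc/J, changes of -2.18 and -0.67.

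Promoters of the members carried the profiled factors about as often as those of all genes tested. A p65 peak centred within 1000 bp of the start site in both replicates of at least 1 strain was found at 96 of 167 members, 57.5% beside 57.4%. In C57BL6/J these were 96 members (57.5% beside 55.6%) and in BALBc/J 67 (40.1% beside 39.9%), the BALBc/J lists having been called against the C57BL6/J input. Of the 12 members higher at 4 hr 5 had such a peak and of the 53 lower 34, while the numbers over all genes were 67.7% of those higher and 52.7% of those lower. Slc25a37, among those higher, had p65 peaks at -203 to -181 bp in all 4 lists, with 380.7 and 399.6 tags in C57BL6/J and 144 and 122 in BALBc/J. Slc44a1 had none within 1000 bp and its strongest within 20000 bp lay at -2880 to -2867 bp in all 4 lists, and that of Slc7a8 lay 13349 to 13363 bp downstream. The median number of p65 peaks within 20000 bp of the start site, averaged over the 4 lists, was 4.5 for the members higher at 4 hr, 2.38 for those not called and 3.25 for those lower, beside 4.25, 2.25 and 2.75 for all genes with these calls. Slc15a3, the most abundant member, had p65 at -88 to -72 bp in all 4 lists with 530.1 to 715 tags, PU.1 within 20 bp of the start site and C/EBPa at -606 to -595 bp in each list of these factors. Slc36a1 had none of the 3 factors within 1000 bp, but carried H3K4me2 and H3K27Ac in all lists. Over all members H3K4me2 regions lay at 91.6 to 92.2% of promoters (94.5 to 94.7% of all genes), H3K27Ac at 82.6 to 87.4% (84.1 to 86.7%), PU.1 at 69.5 to 74.9% (74.1 to 76.1%) and C/EBPa at 49.1 to 56.3% (52.3 to 58.1%).

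Genes around the family were counted the same way at 4 hr in RNA-Seq, where 8.06% of all genes tested rose and 21.1% fell. Of the 6 carriers that the name rule leaves out 3 rose and 1 fell. Of 42 tested transporters of other families and partner proteins 3 rose and 12 fell, with a median log2 change of -0.60. Of 15 tested genes of the amino acid response 1 rose and 5 fell, and of 10 metal buffering genes 1 rose and 1 fell, with medians of -0.45 and -0.38 beside -0.47 for all genes tested.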

How the data were processed

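RNA-Seq and GRO-Seq tags were mapped with Bowtie 0.12.7 to mm9 and counted with HOMER, per the submitters' processing notes. The authors deposited log2 values of 1 plus exon tags per 10 M plus a random part under 1 tag, not divided by length. Peak positions, and a tag signal per 10 M for each peak, are the authors' own, per the file headers. Those headers name the input of C57BL6/J for both BALBc/J p65 lists, and the p65 lists labelled replicate 1 and 2 come from tag directories named as replicates 2 and 3.

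The log2 values were turned back into tags. Symbols were reduced to the transcript with the highest RNA-Seq mean, and genes with 20 tags per 10 M in 2 libraries of an assay were kept, 10715 in RNA-Seq and 9121 in GRO-Seq. Log2(tags + 10) was fitted with limma 3.58.1 (R 4.3.3; lmFit and eBayes with trend) on treatment plus strain, with Benjamini-Hochberg adjustment over all genes tested. Calls needed an adjusted p under 0.05 and a log2 change of at least 1. The fit left 2 residual degrees of freedom in RNA-Seq and 1 in GRO-Seq. Scripts (Python 3.11.15, pandas 2.3.3, numpy 2.4.6) were tested on simulated data. At these depths 1 tag is worth 0.493 to 0.589 tags per 10 M in RNA-Seq and 0.207 to 0.254 in GRO-Seq.

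Members and lists were chosen with earlier results of these data known. Named members were up to 12 called in each direction of each contrast with the largest change, the 2 highest of each class, all strain calls, those called in opposite directions by the assays, and the 5 with the largest difference in response between strains at 4 hr; any others were named after their values were seen. Alternatives were other pseudocounts, filters, centred libraries, left-out libraries and peak windows. Of 40 samples 30 were used; inputs and the CB6F1 and NOD samples were not analysed here. The result of 1 member called between the strains is not reported here.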

Additional observations from a re-analysis of the deposited data

Results flagged for a closer look

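With 1 library per strain and treatment, 4 members had changes of opposite sign in the strains that differed by at least 1 on the log2 scale. None of these differences could be tested, and the share of all genes that meets this rule was not counted. For Slc4a2, Slc20a2 and Slc25a36 the smaller change was near 0, at 0.04, 0.10 and 0.15. In GRO-Seq after KLA for 1 hr the mitochondrial citrate carrier Slc25a1 changed by -0.78 in C57BL6/J and 0.48 in BALBc/J, a difference of -1.26 that was -0.65 with a pseudocount of 50 and -0.80 with centred libraries. The anion exchanger Slc4a2 changed by -1.07 and 0.04 in the same assay, a difference of -1.11 that was -0.76 and -0.65 in those settings. In RNA-Seq at 1 hr Slc25a36, a mitochondrial carrier of pyrimidine nucleotides, changed by 0.15 and -1.05, a difference of 1.20 that was 0.96 and 1.13. In RNA-Seq at 4 hr the phosphate importer Slc20a2 changed by -1.21 and 0.10, a difference of -1.31 that was -1.04 and -1.24. The signs stayed opposite in all 4 members with pseudocounts of 2 and 50 and with centred libraries. Slc20a2 overlaps AI316807.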

How the results depend on the processing

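Among refits of the named members that were called, 681 kept their direction and the call, 38 lost the call and none reversed. Many of these members were named for having the largest changes, so this is largely built in. Refits that no longer tested a member are not among them. The counts below are over all members. With a pseudocount of 50 the members called lower were 30 in RNA-Seq at 4 hr and 5 in GRO-Seq, and 1 was higher in C57BL6/J. A filter of 100 tags left 7 lower in GRO-Seq, where 16 of the 23 were no longer tested, and 1 higher in C57BL6/J. Centred libraries left 16 lower at 4 hr and 11 lower in GRO-Seq. Leaving out 1 library at a time gave 11 to 14 higher and 40 to 61 lower at 4 hr, 2 higher and 0 to 12 lower at 1 hr (12 without the C57BL6/J 1 hr library), and 3 to 4 higher and 6 lower between strains. In GRO-Seq only medians could be had without a library, -0.55 to -0.16 for KLA and -0.45 to -0.03 between strains, since no residual degrees of freedom remained for a test. Members with a p65 promoter peak were 52 when peaks under the median signal were dropped, and 108 to 109 from 1 replicate. Members whose responses differed between strains by at least 1 were 0 at 1 hr and 2 at 4 hr in RNA-Seq and 0 in GRO-Seq with a pseudocount of 50, 15 in GRO-Seq with a pseudocount of 2, and 1 at 1 hr in RNA-Seq and 2 in GRO-Seq with centred libraries. These settings for the strain responses, and whole tags without the random part, which changed no count, were chosen after seeing the data. No paired analysis was possible because no replicate number links the expression libraries, 1 per strain and treatment, and the p65 lists give no test; the strain term of the fit already sets treated beside untreated libraries of the same strain. No share of all genes in the same setting stands beside the counts of this section, so they do not compare members with other genes. The cause of the shifts between settings was not tested. A pseudocount of 10 shrinks the changes of low members most.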
